A study of Mus musculus with 8 samples.

Results

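The 30 genes described here make, sense, move and store cholesterol. They are 18 enzymes of the pathway from acetyl-CoA to cholesterol, 6 genes of the SREBP2 sensing system and 6 genes of sterol export, esterification, LXR signalling and lipoprotein uptake. They were chosen by name and matched to array probes through the accession of each probe, and all 30 were measured among 14322 genes tested. The list does not hold every gene of the pathway.

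Hepatocellular carcinomas of male mice that lack miR-122, the most abundant microRNA of hepatocytes, were compared with liver of age-matched male mice that carry a floxed and otherwise intact miR-122 gene. Tumor and control mice shared a genetic background, a mix of C57BL/6J and 129S/Svj. On each of 8 arrays there was RNA of 1 tumor in the red dye Cy5 and RNA of control liver in the green dye Cy3. The labels give neither the ages in numbers nor the Cre driver, and they do not say whether each control RNA came from a different animal or whether any tumors shared a mouse. A knockout liver without tumor was not analysed here, so the absence of miR-122 and the tumor state cannot be told apart, and neither can tumor and dye, since no array had the dyes swapped.

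Cholesterol synthesis starts with the condensation of acetyl-CoA units to mevalonate, goes on through isoprenoid diphosphates to squalene and lanosterol, and ends with the trimming of lanosterol to cholesterol. When sterol in the endoplasmic reticulum is low, the escort protein SCAP carries the precursor of the transcription factor SREBP2 to the Golgi, where a pair of proteases frees its active part, and the genes of the whole pathway are transcribed together. When sterol is plentiful, INSIG proteins hold SCAP back, and oxysterols activate the LXR receptors, which raise the export pumps. The liver is a main site of this synthesis, and feeding raises it while fasting lowers it.

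The promoters of the synthesis genes were examined because SREBP2 acts on them together with the CCAAT-binding factor NF-Y. RefSeq promoters (build GRCm38.p6) matched 24 of the 30 genes. The 250 bases before the start were searched on both strands for CCAAT, which reads ATTGG where it lies on the other strand. Of the 15 synthesis enzymes with a promoter, 14 held it (93.3%), against 37.5% of 27025 genes in the whole table, and 4 of the 9 other members held it. The exception among the enzymes was Acat2. A gene with several promoters was counted if any of them held the letters. By call, 10 of 11 members called lower held CCAAT and 8 of 13 members not called did. Mvd, Lss, Cyp51 and Dhcr7, enzymes that were not called, were among the holders. A 9-letter form of the sterol regulatory element, TCACNCCAC, was in 1 member, Hmgcs1, and in 1.22% of all genes. The LXR element, searched as a pair of half-sites, was in 0 of the 24 and in 0.0851% of all genes. These are matches of letters in a short window and not binding sites. The 180 bases before the start are printed for 5 enzymes that were lower in tumor and hold several CCAAT letters, and for Scap, which was lower too and holds none, with these letters on either strand and the sterol element in capitals.
Hmgcs1 (chr13:119690171-119690350, plus strand): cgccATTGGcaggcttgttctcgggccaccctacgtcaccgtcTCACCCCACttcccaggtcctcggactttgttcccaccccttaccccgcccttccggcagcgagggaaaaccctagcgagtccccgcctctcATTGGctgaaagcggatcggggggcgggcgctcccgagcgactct
Mvk (chr5:114444089-114444268, plus strand): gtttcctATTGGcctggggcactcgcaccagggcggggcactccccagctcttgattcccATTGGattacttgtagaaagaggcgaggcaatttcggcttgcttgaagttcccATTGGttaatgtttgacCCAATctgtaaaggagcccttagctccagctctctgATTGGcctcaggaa
Idi1 (chr13:8885426-8885605, plus strand): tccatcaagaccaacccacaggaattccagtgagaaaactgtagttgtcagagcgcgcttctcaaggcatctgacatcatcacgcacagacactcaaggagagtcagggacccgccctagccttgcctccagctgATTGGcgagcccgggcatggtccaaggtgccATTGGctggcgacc
Msmo1 (chr8:64733579-64733758, minus strand): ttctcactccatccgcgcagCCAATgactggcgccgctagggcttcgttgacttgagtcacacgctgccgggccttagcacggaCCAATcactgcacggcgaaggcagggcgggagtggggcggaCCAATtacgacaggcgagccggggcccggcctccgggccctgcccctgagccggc
Hsd17b7 (chr1:169969206-169969385, minus strand): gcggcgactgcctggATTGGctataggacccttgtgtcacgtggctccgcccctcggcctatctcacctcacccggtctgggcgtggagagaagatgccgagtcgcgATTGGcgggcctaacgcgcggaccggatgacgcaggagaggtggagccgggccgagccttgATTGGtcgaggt
Scap (chr9:110333108-110333287, plus strand): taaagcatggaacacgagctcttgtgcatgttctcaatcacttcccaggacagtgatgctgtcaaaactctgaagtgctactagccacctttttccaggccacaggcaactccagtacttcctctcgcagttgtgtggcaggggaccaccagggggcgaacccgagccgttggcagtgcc
Mvk held 5 CCAAT matches in these 180 bases, Msmo1 and Hsd17b7 held 3 each, and Idi1 and Hmgcs1 held 2 each.

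Before the results, the arrays that stood apart are given. Between 38.5% and 51.9% of probes were well above background in the tumor channel and between 45.1% and 54.3% in the control channel, with tumor 8 the lowest. All 7 hepatocyte markers of the list in use were above background in both channels. Both channels of array 8 held skeletal muscle transcripts. In its control, 8 of 8 muscle markers were above background (2 or 3 on the other arrays), with a median log2 signal of 12.20 against 6.03 to 6.20. In its tumor, 6 of 8 were (2 or 3 on the others), with a median of 8.80 against 6.05 to 6.16. The control channels of arrays 1 and 2 were the most alike of all 28 pairs (r = 0.995 across genes, which are not replicates, against 0.976 to 0.992 for the other 27 pairs), and whether they are the same RNA is not stated in the labels. Were they the same, the tests would count 1 control 2 times; with both arrays averaged to 1 value, 13 members were called lower.

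Of the 18 cholesterol synthesis enzymes, 11 fell in tumor and 7 were not called. Averaged over the 8 arrays, the log2 ratio (tumor over control) was below 0 for all 18 enzymes, with a median of -1.09, a 2.12-fold lower level. At an adjusted p under 0.05 and a change of at least 2-fold, these 11 passed and 0 rose (limma, p-values adjusted by Benjamini-Hochberg over all genes). At an unadjusted p under 0.05, 16 enzymes were lower and 0 higher. Of all 30 members, 12 fell and 0 rose, where 5.93% of all genes tested fell and 9.53% rose, and the median of all genes tested was 0.03. At an unadjusted p under 0.05, 20 members were lower and 2 higher, against 3991 and 4529 of all 14322 genes tested. Fewer cells of a type and less RNA per cell cannot be told apart in bulk tissue. Averaged over the arrays, the 7 hepatocyte markers also had log2 ratios below 0, from -1.87 to -0.29 (median -0.85), and 1 was called lower (Serpina1c). Their summed signals were 439769 to 648242 in tumors against 821980 to 1106700 in controls. The part of hepatocyte content in the ratios of the members was not tested.

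**Figure D1:**
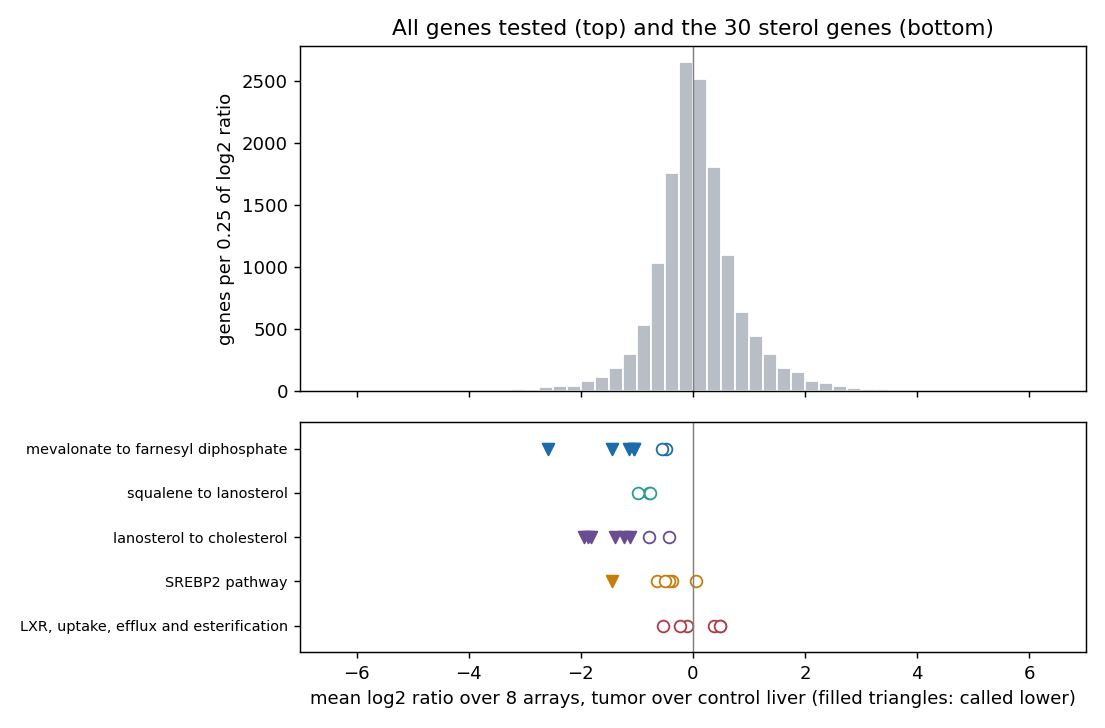
Histogram of the mean log2 ratio (tumor over control liver) for 14322 genes (top; y axis, genes per bin) and the same ratio of the 30 sterol genes by pathway step (bottom; filled triangles are genes called lower, open circles are genes not called). The histogram peaks near 0 and all 18 synthesis enzymes lie left of 0, down to -2.59 for Idi1.

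In the first stretch, from acetyl-CoA to farnesyl diphosphate, 5 of 7 enzymes fell. Idi1, the isomerase that makes the reactive isoprenoid unit, fell most of all members, by 2.59 ± 0.81 on the log2 scale (SD, n = 8, 6.00-fold, adjusted p = 3.85e-05). Its normalised log2 signal ran from 10.93 to 12.16 in the tumors (median 11.40) and from 12.72 to 15.31 in the controls (median 14.23). No tumor reached the lowest control. It was the 92nd lowest of all 14322 ratios. Whether its related neighbour Idi2 adds to its signal was not tested.

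Hmgcs1, the synthase that forms HMG-CoA, fell by 1.45 ± 1.33 (adjusted p = 0.0130), with ratios from -3.42 in tumor 7 to 0.69 in tumor 4. Its levels overlapped, at 12.45 to 15.33 (median 13.75) in tumors and 13.54 to 16.36 (median 15.59) in controls. Tumor 4 had the highest tumor level and the only ratio above 0. The kinases that phosphorylate mevalonate in turn both passed: Mvk had a log2 ratio of -1.06 ± 1.02 (adjusted p = 0.0168) and Pmvk one of -1.05 ± 0.88 (adjusted p = 0.00925). Both were above 0 on arrays 1 and 2 and below 0 on the other 6. Fdps, which joins the units to farnesyl diphosphate, fell by 1.15 ± 0.65 (adjusted p = 0.00132) and was below 0 on all 8 arrays.

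Acat2 and Mvd did not pass. Acat2, the cytosolic thiolase of the first condensation, had a ratio of -0.48 ± 0.47 (below 0 on 7 arrays, adjusted p = 0.0246) and so missed the required size. Its near-identical neighbour Acat3 may add to its signal. Mvd, the decarboxylase that yields the first isoprenoid, had a ratio of -0.55 ± 1.06 (95% interval -1.28 to 0.17, adjusted p = 0.177), below 0 on 4 arrays. Its lowest ratios, -2.02, -1.95 and -1.28, were those of tumors 8, 7 and 6.

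The 3 enzymes from farnesyl diphosphate to lanosterol had ratios short of the size required, so 0 of 3 were called, while all 3 had an adjusted p under 0.05. The squalene synthase gene Fdft1 had a log2 ratio of -0.79 ± 0.75 (adjusted p = 0.0177), the epoxidase gene Sqle one of -0.77 ± 0.89 (adjusted p = 0.0374) and the cyclase gene Lss one of -0.99 ± 0.67 (adjusted p = 0.00332). An adjusted p under 0.05 with a ratio below 0 at any size was reached by 15 of 18 synthesis enzymes and by 25.1% of all genes tested (28.6% with a ratio above 0). Lss passed without array 1 (-1.05), 2 (-1.16), 4 (-1.003) or 5 (-1.03), at adjusted p of 8.08e-04 to 0.00847. Without arrays 1 and 2 together, Fdft1 and Lss were called, at -1.03 (adjusted p = 0.0104) and -1.26 (adjusted p = 0.00107).

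The stretch from lanosterol to cholesterol held the most calls, with 6 of 8 enzymes lower and a median of -1.31. Msmo1, the methylsterol oxidase, fell by 1.94 ± 0.88 (adjusted p = 3.09e-04), from a control range of 13.50 to 16.24 (median 14.92) to a tumor range of 12.22 to 13.53 (median 12.79). The ranges of Msmo1 overlapped at their edge, where the lowest control minus the highest tumor was -0.032. Tm7sf2, a sterol reductase, fell by 1.87 ± 0.63 (adjusted p = 6.17e-05), and its 8 tumor values (12.46 to 14.06, median 13.30) lay below all controls (14.89 to 15.55, median 15.17).

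Sc5d, the desaturase that acts late in the pathway, fell by 1.82 ± 0.75 (adjusted p = 1.85e-04). Its tumor values of 12.09 to 13.16 (median 12.73) lay below the control values of 13.62 to 15.14 (median 14.57). Ebp, the isomerase that shifts the sterol double bond, fell by 1.40 ± 0.59 (adjusted p = 2.41e-04). Its tumor values of 13.91 to 15.44 (median 14.90) lay below its control values of 15.85 to 16.43 (median 16.21). Hsd17b7, the ketosterol reductase of the demethylation complex, fell by 1.23 ± 0.54 (adjusted p = 3.32e-04), with tumors at 9.86 to 10.72 (median 10.30) and controls at 11.14 to 12.21 (median 11.51). With Idi1 and Scap, these made 6 of 30 members in which no tumor reached the lowest control, against 8.48% of all genes tested. The reverse, all tumors above all controls, held for 0 members and for 8.31% of all genes. The ratio was below 0 on all 8 arrays in 10 of 30 members and 16.6% of all genes, and above 0 on all 8 in 0 members and 17.1% of all genes.

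Nsdhl, the dehydrogenase of the same demethylation complex, fell by 1.11 ± 1.03 (adjusted p = 0.0140) with overlapping levels. Its tumors lay at 9.25 to 10.97 (median 10.26) and its controls at 9.50 to 12.42 (median 11.66). The remaining pair did not pass. Cyp51, the lanosterol demethylase, had a ratio of -0.78 ± 1.08 (95% interval -1.52 to -0.04, adjusted p = 0.0701), with -3.06 in tumor 7 and 0.68 in tumor 1. Dhcr7, the reductase that makes cholesterol from its dehydro precursor, had a ratio of -0.43 ± 0.97 (95% interval -1.10 to 0.24, adjusted p = 0.247). It was above 0 on arrays 1 and 2 (0.68 and 1.40) and below 0 on the other 6 arrays (-1.25 to -0.40).

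**Figure D2:**
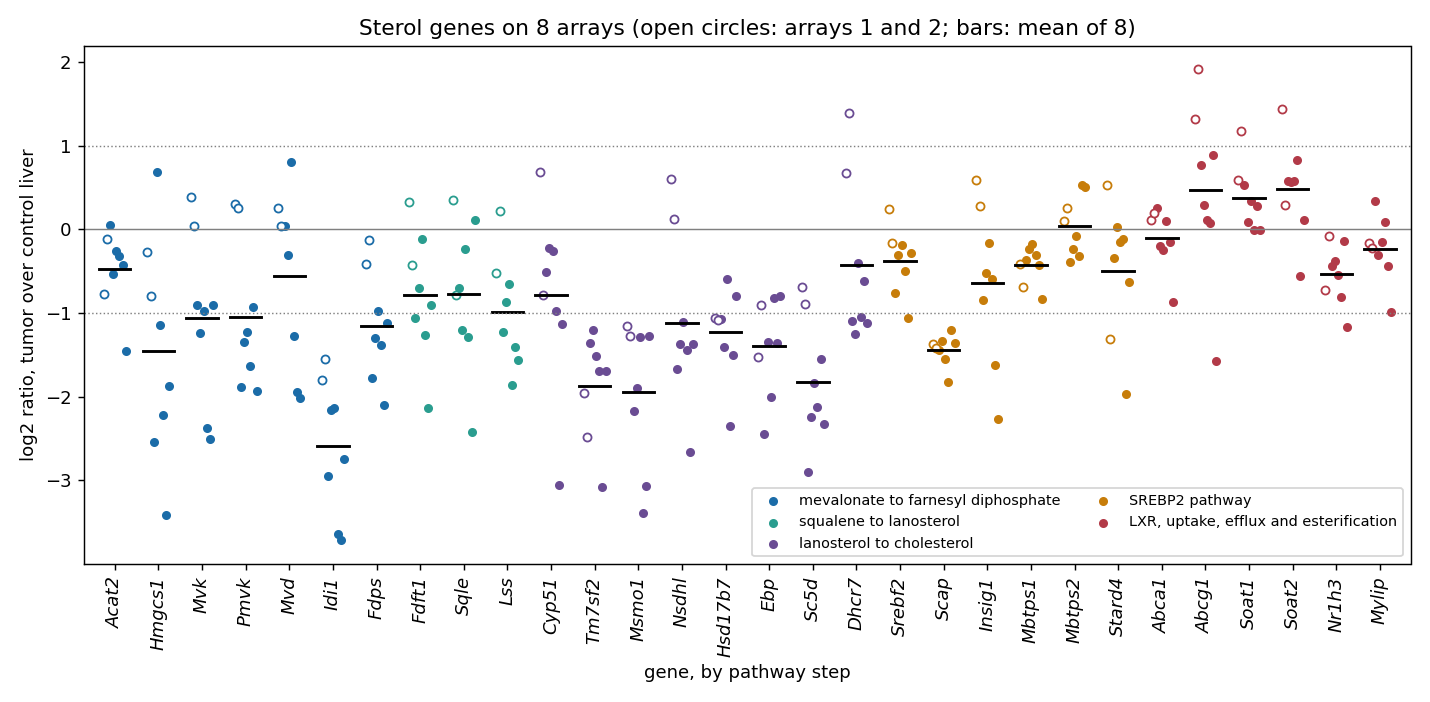
Log2 ratio of tumor over control liver (y axis) for each of the 30 genes (x axis, by pathway step). Each point is 1 of 8 arrays, open circles are arrays 1 and 2, bars are means, and dotted lines mark a ratio of 1 and -1. The open circles of many synthesis enzymes lie near or above 0 while most filled circles lie below, and the 8 points of Scap lie close together.

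The size of the fall differed between arrays, and the control channel moved more than the tumor channel. Over the 18 enzymes, the median SD between arrays was 0.86 in the control channel and 0.51 in the tumor channel, against 0.19 and 0.34 over all genes tested. The median ratio of the 18 enzymes was -0.34 on array 1 and -0.61 on array 2, and between -0.97 and -2.12 on the other 6, with array 7 the lowest. In 16 of 18 enzymes, the controls of arrays 1 and 2 had the lowest 2 of the 8 control levels, which held for 13.5% of all genes tested. The exceptions were Tm7sf2 and Hsd17b7. In the tumor channel, arrays 1 and 2 held the lowest 2 levels in 1 of 18 enzymes.

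Single genes show the size of this gap. The control level of Idi1 was 12.87 on array 1 and 12.72 on array 2, and 13.68 to 15.31 on the others. Hmgcs1 stood at 13.96 and 13.54 in these controls and at 14.64 to 16.36 in the other 6. Insig1, a sterol-responsive gene, stood at 9.54 and 9.82 against 11.12 to 12.12. The tumor levels of Idi1 on arrays 1 and 2 (11.07 and 11.18) lay within the range of the other tumors (10.93 to 12.16).

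Genes of fasting and PPARA response, a list chosen after earlier results, stood high in the same controls. Over 12 such genes, the control level stood 1.47 and 1.48 above the mean of the 8 arrays on arrays 1 and 2 and 0.96 above it on array 8, and 0.39 to 1.21 below it on arrays 3 to 7. The 18 synthesis enzymes stood 1.09 and 1.08 below their mean on arrays 1 and 2, at -0.02 on array 8, and 0.07 to 0.86 above it on arrays 3 to 7. Pdk4, the kinase that shuts off pyruvate oxidation in fasting, was at 10.98, 11.11 and 11.35 in the controls of arrays 1, 2 and 8 and at 7.55 to 8.70 in the others. Its tumor level was also highest on array 8 (11.11, against 7.08 to 9.02 in the other tumors). Both channels of array 8 held skeletal muscle transcripts, and the part of muscle in these Pdk4 levels was not tested. The labels give no feeding state, and its part in the synthesis genes was not tested. The control of array 8 was mixed over this list: Pck1, an enzyme of glucose synthesis, stood at 14.19 there, the lowest of 8 controls (15.88 to 17.31 on the others), and Angptl4, a lipase inhibitor, at 14.30 (14.54 to 16.63 on the others). Cpt1a, which admits fatty acids to mitochondria, stood at 13.40 there and at 15.34 and 15.25 on arrays 1 and 2.

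**Figure D3:**
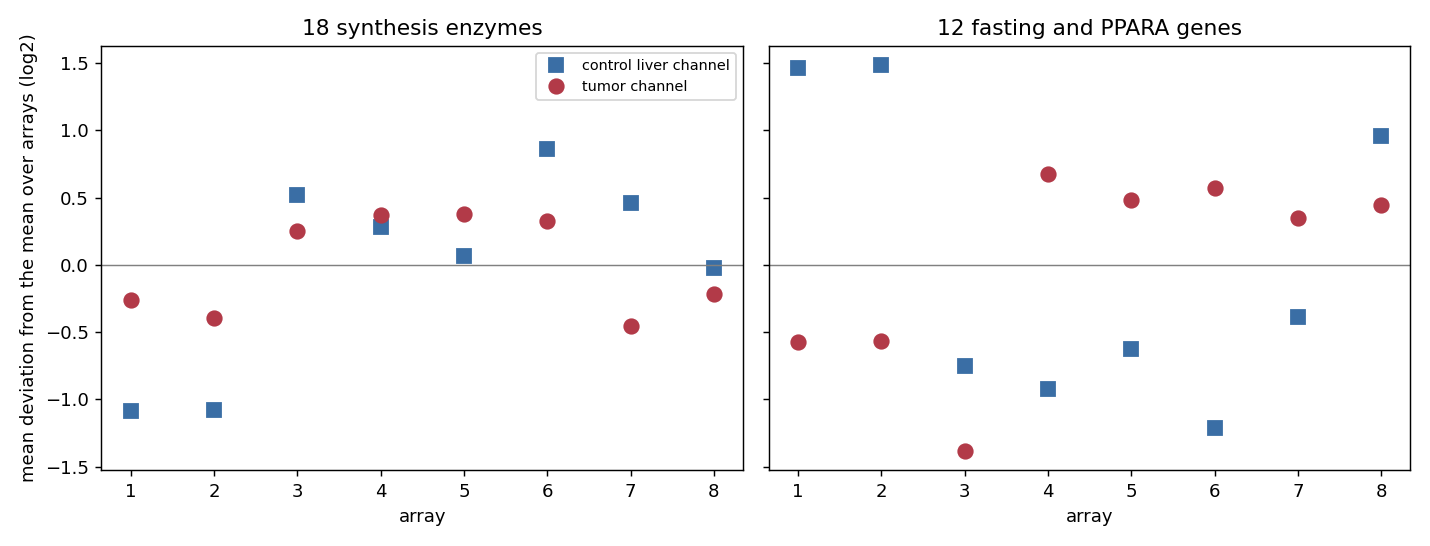
Mean deviation of a gene list from its own mean over 8 arrays, in log2 units (y axis), for each array (x axis) in the control channel (squares) and the tumor channel (circles), for 18 synthesis enzymes (left) and 12 fasting and PPARA genes (right). The control squares of arrays 1 and 2 lie near -1.09 on the left and near 1.48 on the right.

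Without arrays 1 and 2 together, a choice made after their values were seen, 15 members fell and 0 rose, and 15 also fell when array 8 was left out as well. The 3 added in the first case were Fdft1, Lss and Insig1. Without arrays 7 and 8 together, 7 members fell: Idi1, Tm7sf2, Msmo1, Hsd17b7, Ebp, Sc5d and Scap. Those 7 genes passed under all 22 alternatives that were run. Mvk, Pmvk, Nsdhl, Hmgcs1 and Fdps each lost the call under at least 1 of them. Without array 6, Mvk stood at -0.87 and Pmvk at -0.97. Without array 7, Mvk stood at -0.85 and Nsdhl at -0.89. Without array 3, Pmvk stood at -0.93, and without array 8 at -0.92.

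Of the genes that sense sterol and release SREBP2, 1 of 6 fell and 0 rose, with a median log2 ratio of -0.46. At an unadjusted p under 0.05, 3 were lower and 0 higher, against 3991 and 4529 of all 14322 genes tested. Scap, the escort protein of SREBP2, fell by 1.44 ± 0.18 (2.71-fold, adjusted p = 2.19e-06). Its ratios were -1.37, -1.42, -1.44, -1.33, -1.55, -1.83, -1.21 and -1.36 on arrays 1 to 8. These lie close together, and arrays 1 and 2 did not stand apart. Its tumor levels of 12.17 to 12.87 (median 12.58) lay below its control levels of 13.71 to 14.24 (median 14.02). Scap had the 83rd smallest p of all genes, and its SD was the smallest of all 30 members.

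Srebf2, which encodes SREBP2 itself, had a ratio of -0.38 ± 0.40 (95% interval -0.68 to -0.07, adjusted p = 0.0385), short of the size required. Its dimmer probe gave 0.03 ± 0.26, so its small shift rests on 1 of 2 probes. Mbtps1, the first protease that cuts SREBP2, had a ratio of -0.43 ± 0.22, below 0 on all 8 arrays (adjusted p = 0.00329) and short of the size required. Mbtps2, the protease of the second cut, had a ratio of 0.05 ± 0.36 (95% interval -0.23 to 0.33, adjusted p = 0.773), below 0 on 4 arrays. Within arrays, Mbtps1 was lower than Mbtps2 by a mean of -0.48 ± 0.54, below 0 on 6 of 8 arrays, which did not pass an exact two-sided sign-flip test (p = 0.0547, adjusted over 5 pairs p = 0.130).

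Insig1, which holds SCAP in the endoplasmic reticulum and is itself switched on by SREBP2, had a ratio of -0.64 ± 0.95 (95% interval -1.29 to 0.01, adjusted p = 0.0872). It was above 0 on arrays 1 and 2 (0.59 and 0.28) and below 0 on the other 6 (-2.27 to -0.16), and without arrays 1 and 2 it was called (-1.002, adjusted p = 0.0206). Its relative Insig2, which fasting raises, had a ratio of -0.49 ± 1.01 (adjusted p = 0.203), with -1.45, -1.75 and -1.33 on arrays 1, 2 and 8 and -0.66 to 0.83 on the others. The difference of the pair (-0.15 ± 1.39) did not pass the exact sign-flip test (adjusted over 5 pairs p = 0.758). Without arrays 1 and 2 it was -0.88 (exact sign-flip test, adjusted over 5 pairs p = 0.0781). Stard4, a sterol carrier of the cytosol and an SREBP2 target, had a ratio of -0.50 ± 0.80 (95% interval -1.05 to 0.06, adjusted p = 0.117). Its ratios ran from -1.97 in tumor 7 to 0.53 in tumor 1, and without array 7 the mean was -0.29.

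**Figure D4:**
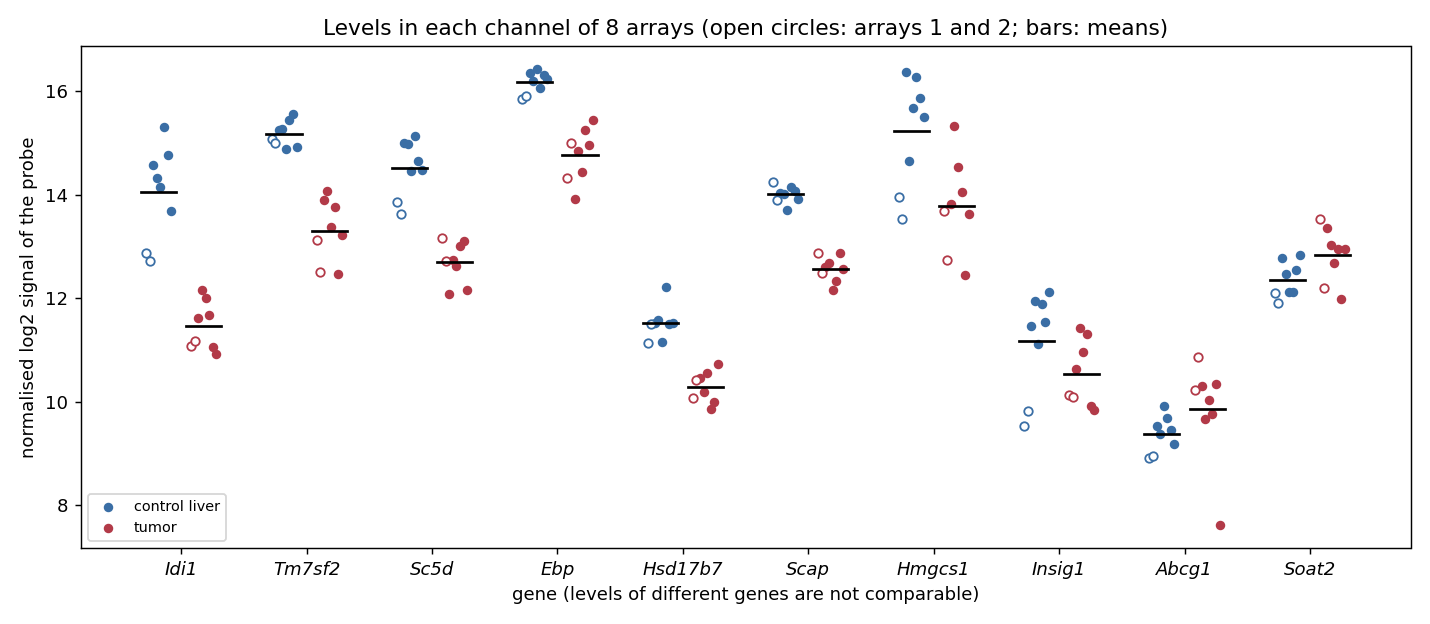
Normalised log2 signal (y axis) of 10 genes (x axis) in the control channel (blue) and the tumor channel (red) of 8 arrays, with open circles for arrays 1 and 2 and bars for means. The channels do not overlap for Idi1, Tm7sf2, Sc5d, Ebp, Hsd17b7 and Scap, and the open control circles of Idi1, Sc5d, Hmgcs1 and Insig1 lie below the filled ones.

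The genes of export, esterification, LXR and uptake held no call: 0 of 6 fell and 0 rose in limma, with a median log2 ratio of 0.14. At an unadjusted p under 0.05, 2 were higher and 1 lower, against 4529 and 3991 of all 14322 genes tested. Soat2, the hepatocyte enzyme that esterifies cholesterol, had a ratio of 0.48 ± 0.58 (95% interval 0.07 to 0.89, above 0 on 7 arrays, adjusted p = 0.0497). Its levels overlapped, at 11.99 to 13.54 (median 12.95) in tumors and 11.92 to 12.83 (median 12.30) in controls. Soat1, the form of the enzyme in macrophages and most other cells, had a ratio of 0.38 ± 0.40 (95% interval 0.08 to 0.68, adjusted p = 0.0377). Neither reached the size required. Soat1 was dim, at 6.61 to 7.86 in tumors and 6.53 to 6.91 in controls, and was well above background in 7 of 8 tumors. Without arrays 1 and 2, its ratio was 0.21 (adjusted p = 0.151). The pair did not pass the exact sign-flip test of their difference (-0.10 ± 0.67, adjusted over 5 pairs p = 0.758).

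Abca1, the pump that loads cholesterol onto apolipoprotein A-I, had a ratio of -0.10 ± 0.36 (95% interval -0.38 to 0.18, adjusted p = 0.515). Tumor 8 stood at -0.87 and the other 7 between -0.25 and 0.25. Without array 8 its ratio was 0.008, of the opposite sign. Abcg1, a pump that passes cholesterol to formed lipoproteins and is strong in macrophages, had a ratio of 0.47 ± 1.04 (95% interval -0.24 to 1.19, adjusted p = 0.233). It was above 0 on 7 arrays (0.08 to 1.91) and at -1.58 in tumor 8. Without array 8, its ratio was 0.77 (adjusted p = 0.0165). Abca1 was lower than Abcg1 by a mean of -0.58 ± 0.75 within arrays, on 6 of 8 arrays, with an exact sign-flip p of 0.0781 (adjusted over 5 pairs p = 0.130).

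Macrophage markers are given beside these genes. Of recruited macrophages, 5 of 9 tested markers rose and 0 fell, with a median log2 ratio of 1.53. The 4 not called were Csf1r (0.07), Itgam (0.20), Adgre1 (0.33) and Lyz2 (0.75). The summed signal of the 9 was 33606.9 to 130132 in tumors and 15130.5 to 26133.6 in controls. Such a sum rests most on the brightest markers, such as Spp1, which reached a log2 signal of 16.53 in tumors. The median ratio of the 9 markers was -0.04 on array 8, where Abcg1 was lowest, and 0.88 to 2.18 on the others. All 6 markers of resident Kupffer cells fell, with a median of -2.49 and summed signals of 1218.18 to 16523.5 in tumors against 20597 to 58800.2 in controls. All 9 tested markers of recruited macrophages and all 6 of Kupffer cells were well above background in at least 1 control. In the tumors the same held except for 1 Kupffer marker. Of 8 markers of stellate cells and fibroblasts, 6 rose and 0 fell, with a median of 1.67 and summed signals of 17299.6 to 98107 in tumors against 35178.4 to 47659.1 in controls. The 2 not called had ratios below 0. They were Dcn (-0.80, below 0 on all 8 arrays, limma adjusted p = 0.0206) and Des (-0.28). The part of macrophages, stellate cells and fibroblasts in the ratios of Abcg1, Soat1 and Nr1h3 was not tested.

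Nr1h3, the LXR of hepatocytes and macrophages, had a ratio of -0.53 ± 0.36, below 0 on all 8 arrays (95% interval -0.81 to -0.25, adjusted p = 0.00546) and short of the size required. Its other probe gave -0.76 ± 0.34. The second LXR gene, Nr1h2, which most tissues express, had a ratio of 0.38 ± 0.23 (above 0 on 7 arrays, adjusted p = 0.00705). Nr1h3 was lower than Nr1h2 on all 8 arrays, by a mean of -0.91 ± 0.39. That is the 1 pair of 5 that passed the exact sign-flip test (p = 0.00781, the smallest 8 arrays can give; adjusted over 5 pairs p = 0.0391). Mylip, an LXR target that marks lipoprotein receptors for degradation, had a ratio of -0.23 ± 0.39 (95% interval -0.53 to 0.07, adjusted p = 0.170). Without array 8, whose ratio of -0.99 was its lowest, the mean was -0.12.

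Of 61 other genes of sterol supply, transport and turnover, 58 were tested: 10 fell, 6 rose, and the median ratio was -0.29. Over all genes tested, 5.93% fell and 9.53% rose, shares to be set beside this count and the group counts that follow. In precursor supply, 4 of 9 fell. Acss2, which makes acetyl-CoA from acetate and is an SREBP target, fell by 2.42 ± 1.01 (adjusted p = 1.87e-04). Acat1, a mitochondrial thiolase, fell by 1.51 ± 0.45 (adjusted p = 4.04e-05). Ggps1, which extends farnesyl diphosphate for the prenylation of proteins, had a ratio of 0.55 ± 0.40, above 0 on all 8 arrays (adjusted p = 0.00731), short of the size required.

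Among 12 genes that handle SREBP2 or its partners, 1 rose and 0 fell. This was Erlin2, an endoplasmic reticulum protein that takes part in the degradation of sterol-sensing proteins (1.37 ± 0.28, adjusted p = 9.65e-06). The NF-Y subunits had ratios of 0.20 ± 0.46 (Nfya), -0.22 ± 0.52 (Nfyb) and -0.56 ± 0.31 (Nfyc, adjusted p = 0.00232), and 0 of 3 were called. Of 8 tested genes of lipoprotein receptors and uptake, 2 rose and 1 fell. Snx17, a sorting nexin that returns lipoprotein receptors to the cell surface, rose by 1.53 ± 0.13 (adjusted p = 7.33e-07), and the receptor gene Vldlr rose by 1.18 ± 0.72 (adjusted p = 0.00189). Stab2, a scavenger receptor of sinusoidal endothelium, fell by 1.44 ± 0.58 (adjusted p = 1.87e-04). Of 6 markers of those endothelial cells, 2 fell, Clec4g (-3.13) and Oit3 (-2.80), and 0 rose. The 4 not called were Kdr (-0.45), Stab1 (-0.22), Pecam1 (0.24) and Lyve1 (0.43). Over the 6 markers, the median log2 ratio was -0.33, and the summed signal was 4624.68 to 7853.65 in tumors and 13414.3 to 20295.4 in controls. Clec4g, the brightest of the 6 in controls (12.70 to 13.71), weighs most in the control sums. The part of endothelial cells in the ratio of Stab2 was not tested.

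Of 14 sterol transport genes, 2 rose and 2 fell. The genes Gramd1b (1.66 ± 0.56) and Gramd1a (1.02 ± 0.30), whose proteins carry cholesterol from the plasma membrane to the endoplasmic reticulum, rose. Scp2 (-1.40 ± 0.43), a peroxisomal sterol carrier, and Stard5 (-1.38 ± 0.41), a cytosolic one, fell. Of 15 tested genes of efflux, plasma esterification and oxysterols, 3 fell and 1 rose. The oxysterol-consuming hydroxylase Cyp7b1 (-2.65 ± 1.63) fell most, followed by Cyp27a1 (-1.54 ± 0.65), which makes an oxysterol by hydroxylating the side chain, and Apoa1 (-1.05 ± 0.88), the main protein of high-density lipoprotein. Ch25h, which makes an oxysterol that blocks SREBP2 release, rose by 1.29 ± 0.68 (adjusted p = 8.34e-04).

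Where a member had a second tested probe, the direction was the same in 10 of 12 genes. The exceptions were Srebf2 and Mbtps2. The second probes of Mvk (-1.21), Pmvk (-1.06), Nsdhl (-1.19) and Tm7sf2 (-2.11) gave ratios near those of the brightest ones (-1.06, -1.05, -1.11 and -1.87). The second probe of Hsd17b7 gave -0.91 and that of Stard4 -0.52. The second probe of Fdft1 gave -0.14 and was well above background in 3 tumors.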

How the data were processed

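RNA of 8 tumors and of control livers was hybridised to 8 two-colour Agilent arrays of a single slide. The deposited scanner files hold median signal and background intensity for each spot, processed signal intensity, and the log10 ratio of red over green, per the file headers. Signals were extracted with Agilent Feature Extraction, version 10.9 per the submitters' processing notes and 10.9.1.1 per the file headers. The design build is mm9, and gene names came from RefSeq accessions (GRCm38.p6).

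Median signals were corrected with normexp (offset 50) and loess within arrays in limma 3.58.1 under R 4.3.3 (tables were read with data.table version 1.17.8), with control and outlier spots at weight 0. Channel levels were taken after Aquantile normalization. Of 55681 probes, 26582 were named. Tested probes exceeded background clearly on 4 or more arrays in either channel, and each gene took its brightest tested probe. The mean log2 ratio was tested against 0 with lmFit and eBayes. Errors are SDs over 8 arrays, and the number of arrays limits their precision. Replicates are tumors that the labels number, each with a control on its array. The p-values set the mean ratio against its spread over these arrays, which holds the spread of tumors and of controls. Intervals are 95% and unadjusted. Related genes were compared by an exact sign-flip permutation test over arrays. Alternatives were other background corrections, scalings, filters and probes, the slide row as a block, array weights and arrays left out. In simulated data of the same 14322 genes, 45 of 50 genes lowered by 1.5 on the log2 scale were called, 49 of 50 lowered by 3 and 0 of 50 lowered by 0.5, with 0 false calls. Noise was drawn independently for each gene and array. Genes that move together, a control shared by arrays and a change near 2-fold were therefore not simulated.

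The members, gene lists and tests were chosen with earlier results of these data known. Genes named are all 30 members, the partners in the 5 pairs, and up to 4 called genes with the largest ratios in each group of other sterol genes, some of which are not reported here; NF-Y subunits, Ggps1, Pdk4, Pck1, Angptl4, Cpt1a, Clec4g, Oit3 and Serpina1c were named after their values were seen. All other single cell type markers were also named after their values were seen. The processed signals and log10 ratios entered no main result.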

Additional observations from a re-analysis of the deposited data

Results flagged for a closer look

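Among 113 sets of 8 values examined (ratios, channel levels and step medians), 6 held 1 value far from the others, by a criterion that chance meets in about 1 of 20 sets. The log2 ratio of Abca1 was -0.87 in tumor 8, against -0.25 to 0.25 in the others. The tumor level of Abcg1 was 7.61 in tumor 8, against 9.67 to 10.87, and that of Mylip was 8.29 there, against 9.18 to 9.94. The median ratio of the 6 genes of export, esterification, LXR and uptake was -0.93 on array 8, against -0.15 to 0.44. Of the controls, Hsd17b7 stood at 12.21 on array 6, against 11.14 to 11.59, and Mbtps2 at 6.90 on array 1, against 7.21 to 7.33. Tumor 8 had the lowest share of probes above background in the tumor channel (38.5%) and the highest median of muscle markers there (8.80 against 6.05 to 6.16), and the part of these in its values was not tested.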

How the results depend on the processing

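The count of members that fell was 10 to 13 with 1 array left out and 7 without arrays 7 and 8 together. The cause of that drop was not tested. Among all genes called lower in tumor the number was 940 under the same choice, against 850 with 8 arrays. The processed signals gave 1532 genes lower and 2011 higher over all genes, against 850 and 1365, and 12 members lower. Members called higher were 0 under all 22 alternatives. With 1 array left out, step medians ranged from -1.25 to -0.97 (to farnesyl diphosphate), -0.95 to -0.59 (to lanosterol), -1.39 to -1.25 (to cholesterol), -0.55 to -0.36 (SREBP2) and 0.06 to 0.22 (export and LXR); without arrays 1 and 2 the last was -0.05.

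The difference of Nr1h3 and Nr1h2 ranged from -0.99 to -0.83 with 1 array left out. It was -0.97 without arrays 7 and 8, -0.91 with arrays 1 and 2 averaged, -0.92 without arrays 1 and 2 and -0.88 without arrays 1, 2 and 8. With 7 arrays the smallest p of this exact test is 0.0781 over 5 pairs unless another pair reaches it too, and the adjusted p was 0.0781 with each array left out. Abca1 against Abcg1 passed with no background subtraction (-0.69) and with the processed signals (-0.75), and Mbtps1 against Mbtps2 with median centring (-0.60). Their ranges with 1 array left out were -0.76 to -0.41 and -0.55 to -0.35. Abca1 against Abcg1 was -0.28 without arrays 1 and 2, and Mbtps1 against Mbtps2 was -0.25 without arrays 7 and 8 and -0.20 without arrays 1, 2 and 8. Soat1 against Soat2 ranged from -0.25 to 0.0026 with 1 array left out, and turned to 0.032 with an offset of 16 and to 0.039 with median centring. Insig1 against Insig2 ranged from -0.46 to 0.020 with 1 array left out, and was 0.12 without arrays 7 and 8, -0.88 without arrays 1 and 2, -0.87 without arrays 1, 2 and 8 and -0.42 with the processed signals.

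With 1 array left out, Mbtps2 ranged from -0.023 to 0.11 and Abca1 from -0.15 to 0.0079. Mbtps2 turned to -0.0045 with the mean of all probes, -0.075 with array weights, -0.11 without arrays 7 and 8 and -0.097 without arrays 1, 2 and 8. Abca1 turned to 0.035 without arrays 7 and 8. Leaving out arrays 1 and 2, alone or with 8, was chosen after the data were seen.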
